A study of Mus musculus with 115 samples.

Results

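The genes described here are 48 autosomal mouse genes for collagens, other matrix proteins and fibroblast proteins, out of 45699 genes quantified in prostate RNA of (TRAMP x WSB) F2 mice. They were chosen by name, with earlier results of these data known, each symbol was matched to 1 Ensembl identifier through the GENCODE M21 annotation of GRCm38, and all 48 were found. Bulk prostate RNA of F2 males was sequenced in 79 and 36 libraries that are kept apart below, each with an identifier of its own that is taken here as 1 mouse. TRAMP is a C57BL/6 line in which the prostate epithelium expresses a viral oncogene, the SV40 T antigen, and WSB/EiJ is an inbred strain derived from wild mice. All mice were transgene-positive offspring of that cross and form 1 group, with no transgene-negative libraries and no treatment named in the labels, kept until a fixed age or a humane endpoint. Small prostates gave RNA of the ventral lobe only, so a library holds tumor, gland and stroma in proportions that the labels do not give. The question put to the data was how the matrix genes vary between mice, how far they vary together, and how they stand to Chga, Mki67 and Tgm4, marker genes of neuroendocrine cells, of cycling cells and of prostate secretory epithelium.

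Collagens are triple helices of 3 chains. Fibrillar collagens I, III and V form the fibres of connective tissue, collagen IV forms the sheets of basement membranes, and collagen VI forms beaded filaments around cells. Chains are hydroxylated and folded in the endoplasmic reticulum with the chaperone Serpinh1, trimmed outside the cell by procollagen proteinases and joined into fibres by lysyl oxidases. In the prostate, fibroblasts, smooth muscle cells and the cells of vessel walls make most of this matrix, and it is remodelled around tumors. In bulk RNA, fewer cells of a type and less RNA per cell cannot be told apart.

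RefSeq promoter windows, 300 bases from 250 before to 50 after the start of transcription on GRCm38.p6, were matched to 32 of the 48 members. Those shown are of 3 members, Col3a1, Col5a1 and Serpinh1, whose correlation with Col1a1 passed the test described below in both sets of libraries, and of 2, Mfap2 and Pdgfra, whose correlation passed in one set and not in the other, a difference that was not itself tested. Each runs 5′ to 3′ on the strand of its gene, from 200 to 11 bases before the start, and overlaps no annotated exon. Capitals mark matches, on either strand, to the CCAAT box, the TATA box TATAAA, the GC box GGGCGG or the AP-1 site TGANTCA, in which N is any base, and no matches overlap.
Col3a1 (chr1:45311338-45311527, plus strand): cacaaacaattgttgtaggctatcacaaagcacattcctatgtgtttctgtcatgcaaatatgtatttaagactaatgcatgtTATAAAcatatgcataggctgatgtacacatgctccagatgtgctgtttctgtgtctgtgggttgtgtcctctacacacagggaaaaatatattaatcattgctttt
Col5a1 (chr2:27886225-27886414, plus strand): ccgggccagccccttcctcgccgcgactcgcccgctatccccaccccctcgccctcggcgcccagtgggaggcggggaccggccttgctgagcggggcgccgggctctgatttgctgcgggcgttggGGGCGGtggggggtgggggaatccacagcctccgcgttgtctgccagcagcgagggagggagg
Serpinh1 (chr7:99353250-99353439, minus strand): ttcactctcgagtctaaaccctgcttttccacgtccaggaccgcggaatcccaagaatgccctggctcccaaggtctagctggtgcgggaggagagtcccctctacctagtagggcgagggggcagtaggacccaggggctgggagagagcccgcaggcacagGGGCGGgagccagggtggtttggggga
Mfap2 (chr4:141010224-141010413, plus strand): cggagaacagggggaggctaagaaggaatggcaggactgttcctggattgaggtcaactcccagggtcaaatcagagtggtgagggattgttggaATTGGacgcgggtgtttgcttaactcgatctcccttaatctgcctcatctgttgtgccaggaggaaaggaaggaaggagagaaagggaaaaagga
Pdgfra (chr5:75152051-75152240, plus strand): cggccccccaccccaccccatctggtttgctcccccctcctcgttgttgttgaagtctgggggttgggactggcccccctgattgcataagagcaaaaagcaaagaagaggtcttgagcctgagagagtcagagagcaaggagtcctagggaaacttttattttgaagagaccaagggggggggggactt
The Col3a1 stretch held TATAAA at -117, counted from the start of transcription, and the stretches of Col5a1 and Serpinh1 held GGGCGG at -73 and -37. Mfap2 held CCAAT, read on the other strand, at -105, and Pdgfra held none of the 4. The base composition also differed, with 36.3% G or C in Col3a1 against 75.8% in Col5a1. Over the whole 300-base windows, 19 of 32 members held GGGCGG (59.4%), against 35.9% of 27025 promoters, 1 per gene. The other shares were 37.5% against 37.9% for CCAAT, 15.6% against 14.2% for TATAAA and 6.25% against 7.93% for TGANTCA. These are matches of letters, given as a description.

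Values are in TPM, shares of the transcripts of a library scaled to a constant total, which are corrected for gene length and so allow levels of different genes to be set side by side. TPM keeps no read depth, so the counting error behind a value is unknown. The 20 genes with the largest share took between 48.9% and 81.8% of the TPM of a library, and that share lowers the TPM of all other genes. The first principal component of log2(TPM + 1), computed without the members and the 3 marker genes, accounted for 48.8% of the variance and fell into 2 separate sets of libraries, of 79 and 36. With the members included, 0 libraries changed sides. Correlations were therefore computed within the 79 and within the 36, and differences between the 2 sets were not tested. Levels and spreads are given over all libraries unless a set is named, so differences in level between the sets enter them. Among the 36, Chga lay between 21.2 and 479 TPM in 32 libraries and between 0.15 and 2.55 in 4. Among the 79 it lay between 0.06 and 4.84 TPM. Seminal vesicle transcripts, of a gland beside the prostate, were plentiful in 13 libraries, all among the 79. The 2 libraries with nearly the same name had r = 0.955 over genes, and 251 other pairs of libraries had a higher r. Whether they are of 2 mice or of 1 is not given in the labels, and both were kept.

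The 48 members varied over a wide range between mice. Their summed level was 99.6 TPM in the lowest library, 658 in the median and 10023 in the highest, which is from 0.00996% to 1.00% of a library. The 17 collagen genes made up a median of 33.3% of that sum. Taking 1 TPM in 50% or more of all libraries as detection, 47 of the 48 members were detected. The exception was Mfap2, with a median of 0.78 TPM over all libraries, 0.54 in the 79 and 3.84 in the 36. Within the 36, Fbln5, Fmod and Tnxb had medians under 1 TPM, as Col8a1 did within the 79. A library held a median of 45 members at 1 TPM or more, and the lowest held 18. The 90th percentile over all libraries exceeded the 10th by a median of 7.68 times over the members, beside 3.98 times over 13891 genes tested. The rest of the 14623 genes tested had a 10th percentile of 0 and so no finite ratio, and the 3.98 leaves them out. Among the members this ratio ran from 3.31 for Efemp2 to 66.4 for Tnxb. Differences in level between the 79 and the 36 enter these ratios.

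**Figure D1:**
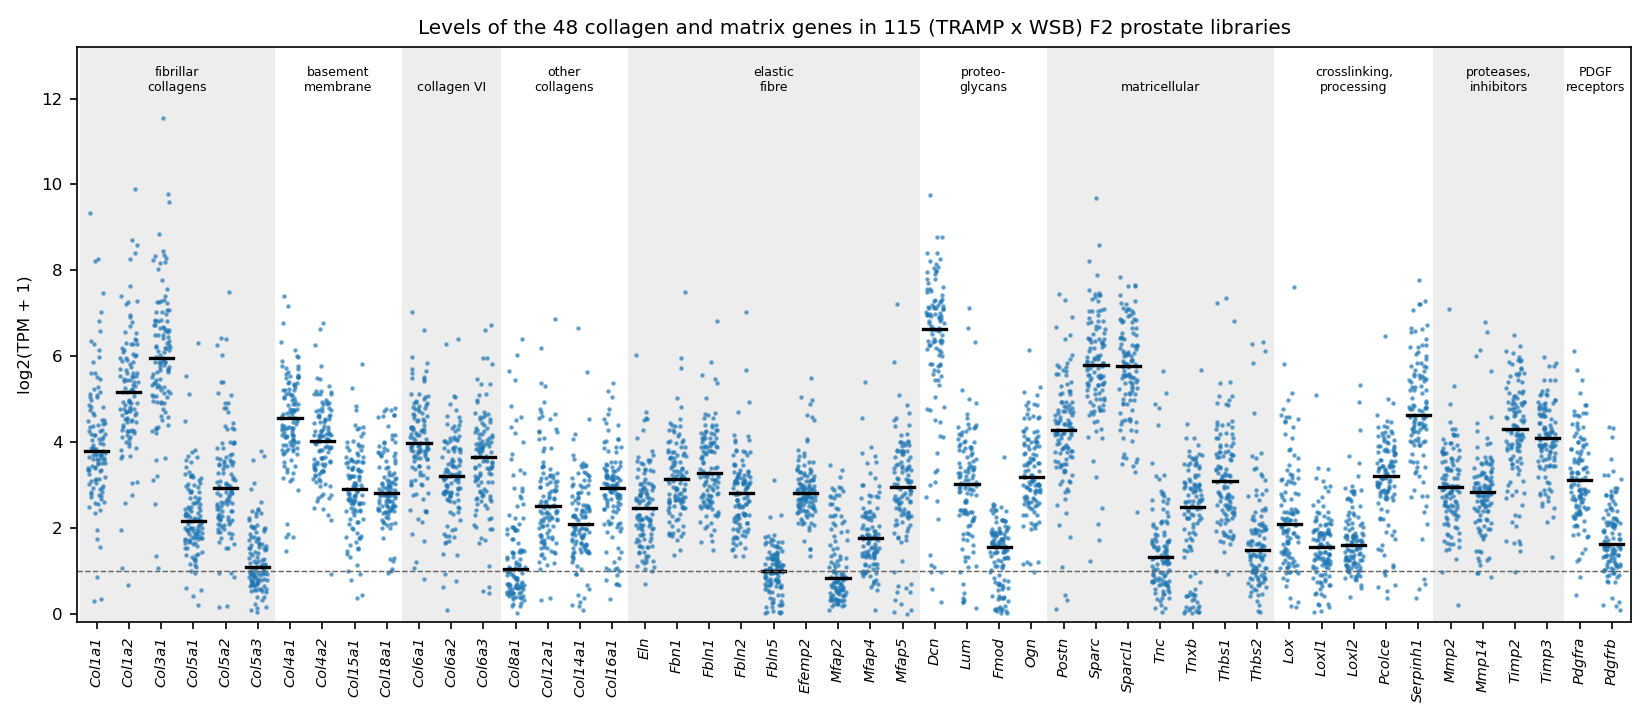
Levels of the 48 members as log2(TPM + 1), 1 point per library over all libraries, grouped by role, with a black line at each median and a dashed line at 1 TPM. Dcn, Col3a1, Sparc and Sparcl1 have the highest medians, and Mfap2 has its median below the dashed line.

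The fibrillar collagens were led by Col3a1, the single chain of collagen III, with 1.10 TPM in the lowest library, 61.1 in the median and 3006 in the highest. Col1a2 ranged from 0.60 over a median of 35.2 to 952 TPM, and Col1a1 from 0.23 over 12.8 to 645. Both chains of collagen I, the main collagen of connective tissue, thus spanned over 3 orders of magnitude between mice. The chains of collagen V, which sets the width of collagen I fibres, were lower, with medians of 6.59 TPM for Col5a2, 3.50 for Col5a1 and 1.12 for Col5a3. The basement membrane collagens had 90th percentiles of 4.70 to 7.05 times their 10th, beside 5.97 to 12.4 times for the fibrillar chains. Col4a1 ran from 1.75 over 22.4 to 167 TPM and Col4a2 from 0.89 over 15.4 to 108.99. Col15a1 and Col18a1, which join basement membranes to the tissue around them, had medians of 6.51 and 6.05 TPM. Collagen VI had medians of 14.7 TPM for Col6a1, 11.5 for Col6a3 and 8.18 for Col6a2. Among the other collagens, Col16a1 and the fibre-associated Col12a1 and Col14a1 had medians of 6.62, 4.69 and 3.29 TPM. Col8a1, a short-chain collagen, had a median of 1.06 TPM, was at 1 TPM or more in 60 libraries (52.2%) and ran from 0.01 to 83.97 TPM.

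Of the elastic fibre genes, elastin itself (Eln) had a median of 4.53 TPM, and the fibrillin gene Fbn1, whose product is the scaffold of the fibre, one of 7.74. The fibulins Fbln1, Fbln2 and Fbln5 had medians of 8.70, 5.97 and 1.01 TPM. Efemp2, needed for elastic fibre assembly, was the steadiest member over all libraries, between 1.56 and 43.6 TPM. The microfibril genes Mfap5 and Mfap4 had medians of 6.76 and 2.38 TPM, and Mfap5 was listed at 0 in 1 library. Dcn, the proteoglycan decorin that coats collagen fibrils, had the highest median of the members over all libraries, 97.99 TPM. It ran from 0.20 to 860 TPM, with a median of 125.73 in the 79 libraries, also the highest there. Within the 36, Col3a1 had the highest median, 80.1 TPM, and that of Dcn was 21.4. The related proteoglycans Ogn, Lum and Fmod had medians of 8.13, 7.16 and 1.95 TPM.

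Sparc, a collagen-binding matricellular protein, ran from 1.36 over 54.2 to 821 TPM, while its relative Sparcl1 had nearly the same median, 53.5, with a range from 4.14 to 229. Periostin (Postn) had a median of 18.5 TPM, the thrombospondins Thbs1 and Thbs2 7.54 and 1.81, and the tenascins Tnxb and Tnc 4.58 and 1.5. Over all libraries Tnxb had the widest spread of the members and was at 0.01 TPM in its lowest library. Its median was 6.41 TPM in the 79 libraries and 0.355 in the 36, a difference that enters this spread. Serpinh1, the collagen chaperone, ran from 0.29 over 23.6 to 219 TPM. Pcolce, which enhances the trimming of procollagen, had a median of 8.20 TPM, and the lysyl oxidases Lox, Loxl2 and Loxl1 had 3.28, 2.02 and 1.96. Lox reached 195 TPM in the highest library. The matrix proteases Mmp2 and Mmp14 had medians of 6.69 and 6.10 TPM, and the protease inhibitors Timp2 and Timp3 had 18.8 and 15.9. Of the PDGF receptors, Pdgfra, found on fibroblasts, had a median of 7.60 TPM and Pdgfrb, found on fibroblasts and pericytes, one of 2.06. Exons of 17 members overlap those of another annotated gene, with 2442 bases shared between Fbn1 and Gm9913 and 1733 between Timp3 and Syn3. Nothing in the library protocol says that strand was kept, so reads from such stretches cannot be told apart.

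Chains of 1 collagen were not at 1 level. Col1a1 was below Col1a2 in every library, with a median ratio of 0.386 and a mean log2 ratio of -1.20 ± 0.37 (SD over all libraries, the 79 and 36 together). The collagen I molecule holds more α1 than α2 chains, the opposite order. Col4a1 was above Col4a2 in all 79 and in 30 of the 36, with a median ratio of 1.49 and a mean log2 ratio of 0.50 ± 0.28. Col5a1 was below Col5a2 in all but 4 libraries, with a median ratio of 0.543 and a mean log2 ratio of -0.79 ± 0.48. Col6a1 was above Col6a2 in every library, with a median ratio of 1.83 and a mean log2 ratio of 0.78 ± 0.18, the narrowest of the 6 pairs. Col6a3, the large chain of collagen VI, stood between them, with mean log2 ratios of 0.41 ± 0.53 for Col6a1 over Col6a3 and -0.37 ± 0.50 for Col6a2 over Col6a3. All 6 ratios differed from 1, each with p = 1e-05 in a two-sided permutation of the signs over libraries, the smallest that 100000 permutations can give, and an adjusted p of 1e-05 over the 6 pairs. These p-values test the mean log2 ratio against 0 with mice as the unit, and the SDs give how far a ratio varied between mice. A bias in quantifying 1 chain that all libraries share would enter the ratio and was not tested. Within the 36 alone the least certain was Col6a1 over Col6a3, with a mean log2 ratio of 0.31 ± 0.66 and an adjusted permutation p of 0.0085.

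**Figure D2:**
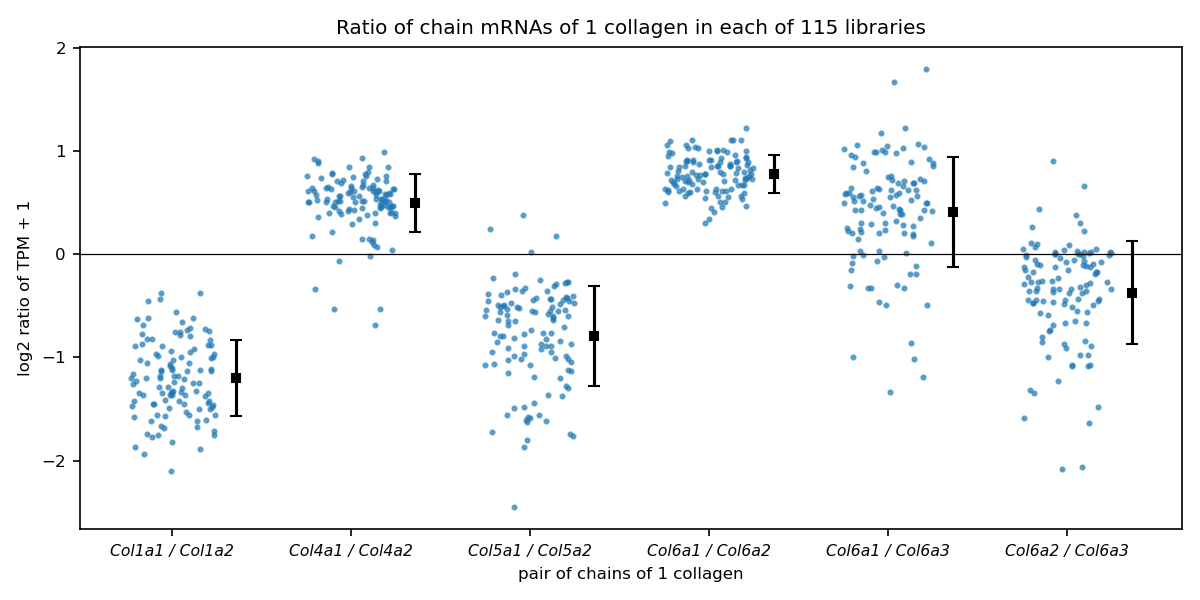
The log2 ratio of TPM + 1 of 2 chains of 1 collagen, 1 point per library over all libraries, with the mean and SD beside each cloud as a square with bars. Col1a1 lies below Col1a2 in every library and Col6a1 above Col6a2 in every library, while the pairs with Col6a3 cross 0.

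Levels of most members were correlated across mice. Among the 79 libraries, the median Pearson r over the 1128 pairs of members was 0.778, from 0.141 to 0.987, and 1070 pairs were above 0.5 and 0 below 0. Among the 36 libraries the median was 0.771, from -0.377 to 0.991, with 841 pairs above 0.5 and 43 below 0. The pairs share libraries, so these are descriptions with no test. Pairs of other genes are not given beside them, and neither is a rank correlation of the pairs. The 79 include the library in which the members summed to 10023 TPM. The closest pair in the 79 was of neighbours in the genome, and not all neighbours were as close. Col4a1 and Col4a2 lie head to head on chromosome 8, their exons overlap by 22 bases, and their r was 0.987 in the 79 and 0.979 in the 36. Col6a1 and Col6a2, 85161 bases apart on chromosome 10, had r of 0.976 and 0.99. Col3a1 and Col5a2, 24614 bases apart on chromosome 1, had 0.945 and 0.969, and Dcn and Lum, 46984 bases apart on chromosome 10, had 0.896 and 0.947. Col18a1, 326009 bases from Col6a1 and 428547 from Col6a2, had r of 0.792 and 0.791 with them in the 79, near the median of all pairs. In the 36 these r were 0.863 and 0.849. Distant chains of 1 collagen were also close, with Col1a1 on chromosome 11 and Col1a2 on chromosome 6 at 0.964 and 0.989.

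**Figure D3:**
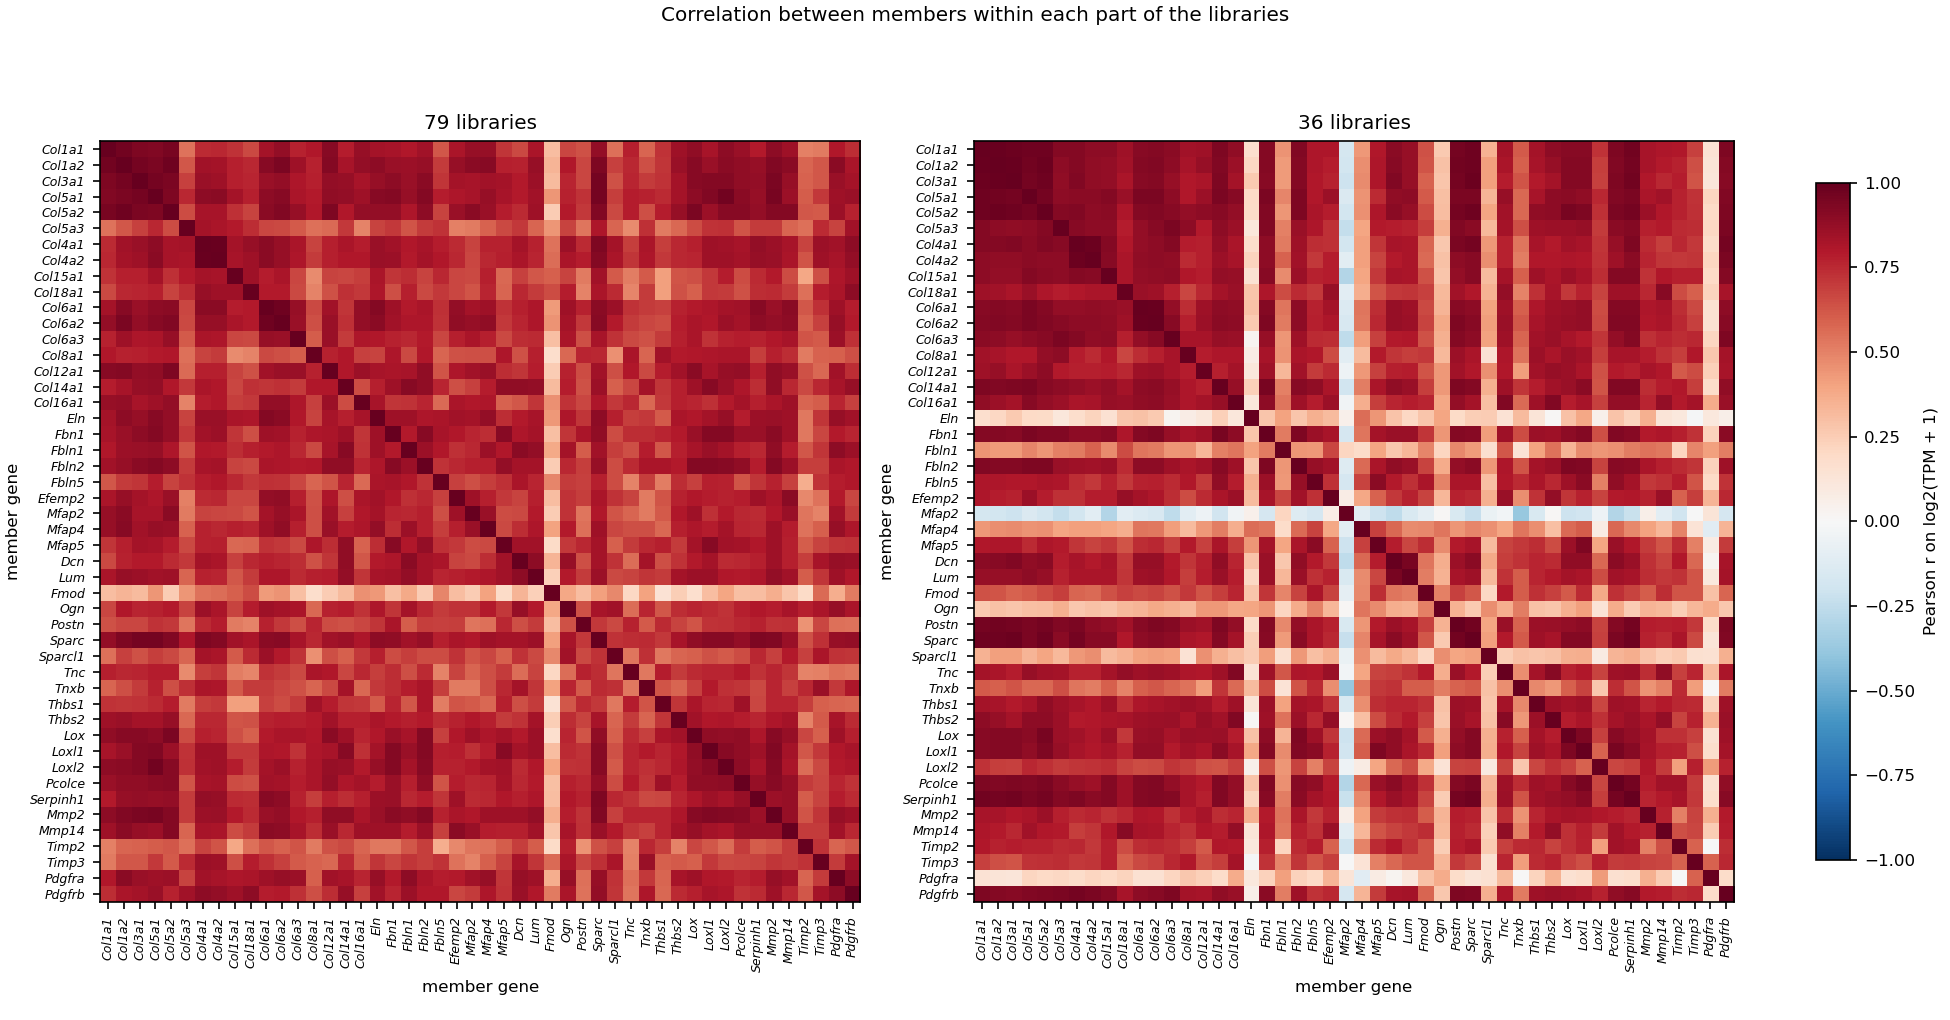
Pearson r between every pair of the 48 members on log2(TPM + 1), in the 79 libraries on the left and the 36 on the right, from blue at -1 over white at 0 to red at 1. The left matrix holds no pair below 0, and the right one has pale rows for Eln, Mfap2, Ogn, Sparcl1 and Pdgfra.

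With Col1a1 as the reference, 47 of the other 47 members had a positive correlation that passed the test in the 79 libraries, where 52.8% of all genes tested did. A gene passed at an adjusted p under 0.05 in a two-sided permutation test of Pearson r, adjusted by the Benjamini-Hochberg method over all genes tested. The median r was 0.80 over the members and 0.26 over all genes. Among the 36, 42 of 47 members passed, where 44.7% of all genes did, with medians of 0.88 and 0.28. Without the 4 of the 36 in which Chga was low, 41 of 47 passed, where the share of all genes was 20.9%. Endothelial and leukocyte markers moved with Col1a1 as well, as given below, and their part in these values was not tested.

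The 4 members with the highest r with Col1a1 in both sets were the fibrillar collagen genes Col1a2, Col3a1, Col5a1 and Col5a2. In the 79 libraries Col1a2 had r = 0.964 (Spearman rho = 0.951) and Col5a2 had r = 0.952 (rho = 0.919), both with an adjusted permutation p of 7.88e-05. Without the 2 libraries in which Col1a1 lay farthest from its median, these r were 0.947 and 0.919. Within the 36, Col1a2 had r = 0.989 (rho = 0.994) and Col3a1 had r = 0.982 (rho = 0.987), both with an adjusted permutation p of 7.27e-05. Among the genes that fold, trim and join collagen, Serpinh1 had r = 0.791 in the 79 libraries and 0.967 in the 36, and Lox had 0.883 and 0.907. Sparc had 0.876 and 0.970. The weakest member in the 79 was Fmod, a small proteoglycan that binds collagen, with r = 0.312 (rho = 0.328, adjusted permutation p = 0.0132). The protease inhibitors Timp2 and Timp3 were also loose there, at r = 0.503 and 0.521. The remaining fibrillar chain, Col5a3, came next from the bottom in the 79, with r = 0.543 (rho = 0.588), and had r = 0.915 in the 36.

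**Figure D4:**
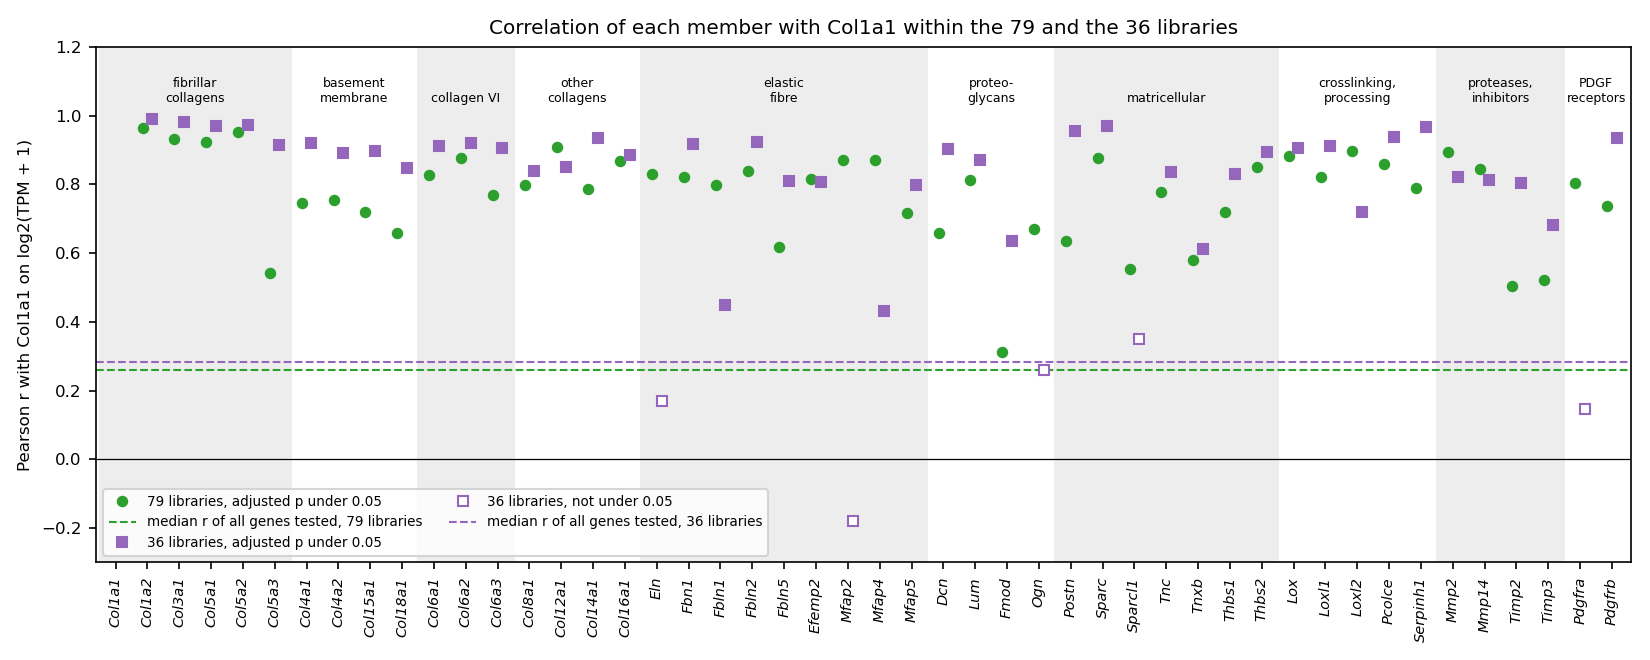
Pearson r of each member with Col1a1 on log2(TPM + 1), circles for the 79 libraries and squares for the 36, filled where the adjusted p is under 0.05, with dashed lines at the median r of all genes tested. Circles lie at 0.312 or above throughout, while the squares of Eln, Mfap2, Ogn, Sparcl1 and Pdgfra are open.

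Within the 36, 5 members did not pass. Mfap2 had r = -0.178 (rho = -0.218, adjusted permutation p = 0.374) and ranged from 0.82 over a median of 3.84 to 9.96 TPM. Pdgfra had r = 0.146 (rho = 0.203, adjusted permutation p = 0.472), with a range from 0.35 over 8.24 to 42.3 TPM. Eln had r = 0.170 (rho = 0.222, adjusted permutation p = 0.398), with a range from 1.01 over 6.14 to 22.1 TPM. So these 3 varied more than 10-fold between mice without a relation to Col1a1 that passed. Ogn had r = 0.261 (adjusted permutation p = 0.176), but its rho of 0.407 passed (adjusted permutation p = 0.0291). Sparcl1 had r = 0.351 (rho = 0.352) and an adjusted permutation p of 0.0606. Fbln1 and Mfap4 passed with r of 0.450 and 0.432, below the other members that passed. In the 79 libraries the same genes were among those that passed, with r of 0.873 for Mfap2, 0.804 for Pdgfra, 0.831 for Eln, 0.672 for Ogn and 0.554 for Sparcl1. The other PDGF receptor, Pdgfrb, had r = 0.738 in the 79 and 0.935 in the 36.

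The library with the highest sum, among the 79, had 10023 TPM in the members, with Col3a1 at 3006, Dcn at 860 and Tgm4 at 23.8 TPM. The 3 next highest were among the 36, with sums of 4222, 3550 and 2931 TPM, and all had low Chga, at 2.55, 0.15 and 1.15 TPM. The 4 lowest sums were also among the 36, from 99.6 to 145 TPM, with Chga between 44.2 and 55.9 TPM and Mki67 between 85.98 and 141. In the lowest of them Col1a1 was at 0.82 TPM and Dcn at 0.96, while Sparcl1 was at 15.4, Pdgfra at 13.4 and Fbln1 at 12.8 TPM. In the third lowest, with Col1a1 at 0.23 TPM, Pdgfra was at 25.5 TPM. These libraries were picked by their sums and are given as single values.

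Outside the members, the 5 genes most like Col1a1 in the 79 libraries were Adamts2 (r = 0.949, rho = 0.924), Mrc2 (r = 0.919), Ppic (r = 0.913), Bmp1 (r = 0.901) and Ctsk (r = 0.897), each with an adjusted permutation p of 7.88e-05. Adamts2 and Bmp1 are procollagen proteinases, Mrc2 is a receptor that takes up collagen and Ctsk is a protease that digests it. In the 36 libraries their r ran from 0.795 for Adamts2 to 0.935 for Mrc2. Of a list of 22 collagen synthesis enzymes, 17 were tested, of which 12 passed with a positive r in the 79 libraries and 13 in the 36. Of all genes, 52.8% and 44.7% did. Adamts2 and Bmp1, named above, are on this list too. Its most abundant genes, the prolyl hydroxylase subunit P4hb and the isomerase Ppib, did not pass in the 79, with r of -0.23 and -0.24 (adjusted permutation p = 0.0671 and 0.0524), and passed in the 36 with 0.77 and 0.70. Of 18 TGF-beta pathway genes, which regulate matrix synthesis, 14 passed with a positive r in the 79 libraries, beside the same 52.8% of all genes. In the 36, 12 passed with a positive and 1 with a negative r, beside 44.7% and 13.7% of all genes. The most abundant genes of the TGF-beta list by median TPM are Smad4 and Ltbp1.

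Endothelial and leukocyte markers moved with Col1a1, beside 52.8% of all genes in the 79 libraries and 44.7% in the 36. Of 9 endothelial markers, 8 passed with a positive r in the 79 libraries (median r 0.58) and 9 in the 36 (median r 0.88). The summed level of the list ran from 10.4 to 205 TPM, and Egfl7 and Pecam1 were its most abundant genes. All 7 leukocyte markers tested, of 11 listed, passed with a positive r in both sets (median r 0.62 and 0.88), with a summed level from 20.5 to 1446 TPM, led by Lyz2 and C1qa. Of 10 smooth muscle markers 5 passed with a positive r in the 79, a share no larger than that of all genes, and 7 in the 36, with a summed level from 7.87 to 4067 TPM, led by Tagln and Acta2. Basement membrane collagens and Pdgfrb are also made by vessel cells, so these lists are not independent of the members in what they mark. The neuroendocrine list had 5 of 8 genes with a negative and 1 with a positive r that passed in the 36, and 3 with a positive r in the 79. Basal epithelium markers gave 1 of 4 with a positive r in either set, luminal markers 4 of 8 with a negative r in the 79 and 4 with a positive and 2 with a negative r in the 36, and proliferation markers 4 of 8 with a positive r in the 79 and 1 in either direction in the 36. Adipocyte markers gave 0 of 5 in the 79 and 4 in the 36, and the seminal vesicle and skeletal muscle lists gave 0 of 6 each in both. Schwann cell markers gave 1 and 2 of 3 tested.

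In the 36 libraries, some of the matrix genes were lower where Mki67 was higher, and most did not pass in either direction. Part of the spread of Mki67 there went with the order in which libraries were deposited, as given below. There 21 of 48 members had a negative correlation with Mki67 that passed the test, where 20.8% of all genes did, and 1 had a positive one, where 23.3% did. The median r was -0.35 over the members and -0.02 over all genes. The 21 included Col1a1, with r = -0.457 (rho = -0.553, adjusted permutation p = 0.016), Col3a1, with r = -0.447 (rho = -0.557, adjusted permutation p = 0.019), and Dcn, with r = -0.461 (rho = -0.540, adjusted permutation p = 0.0147). Without the 2 libraries in which Mki67 lay farthest from its median, these 3 r were -0.620, -0.628 and -0.568, and 40 members passed, where the share of all genes was 31.4%. The strongest were Timp2, with r = -0.654 (rho = -0.677, adjusted permutation p = 0.000299), and Tnxb, with r = -0.594 (rho = -0.623, adjusted permutation p = 0.00176). By role, 5 of 6 fibrillar collagens and 4 of 5 crosslinking and processing genes passed, and 0 of 4 basement membrane collagens and 0 of 2 PDGF receptors. The member with the positive correlation was again Mfap2, with r = 0.519 (rho = 0.467, adjusted permutation p = 0.00464).

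The relation to Mki67 held in number without the 4 libraries of low Chga, where 20 of 48 passed beside 20.7% of all genes. Of the 7 other proliferation markers, 3 had a positive correlation with Mki67 that passed in the 36, so the anchor stands here for Mki67 and not for the list. Among them Top2a had r = 0.605 (adjusted permutation p = 0.000816), while Cdk1 had 0.097 and Mcm2 -0.254. Other cell type lists fell with Mki67 too: negative correlations passed for 7 of 7 leukocyte, 6 of 9 endothelial, 7 of 10 smooth muscle and 6 of 8 luminal markers. In the 79 libraries 35 of 48 members had a positive correlation with Mki67 that passed, where 72.9% of all genes did. That share is no larger than in the background, and the share of TPM in the 20 most abundant genes fell with Mki67 there (r = -0.624, rho = -0.625, adjusted permutation p = 8e-05 over 8 relations). After median-of-ratios scaling 4 members passed with a positive and 5 with a negative r, where 22.2% and 20.1% of all genes did. After rescaling without those 20 genes the counts were 7 and 1, where 33.6% and 8.25% of all genes passed. The shares of the members were below those of all genes in both directions. Of the 79, the libraries deposited from W4356 on are W5000 to W5005, with Mki67 of 0.39 to 0.93 TPM. Of the 36, those deposited from W4356 on had Mki67 of 73.6 to 144 TPM and Col1a1 of 0.23 to 44.7 TPM. All libraries of the 36 with lower Mki67 came before W4356. Those before it reached 133 TPM of Mki67 and had Col1a1 of 0.26 to 308 TPM. Correlations within this run were not computed, so its part in the values of the 79 and of the 36 was not tested.

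The counts of members that passed with Chga over the 36 and over the 79 were 0 or 1 within groups of these libraries. Over the 36 libraries 23 of 48 members had a negative correlation that passed, where 23.7% of all genes did, but 4 libraries with Chga between 0.15 and 2.55 TPM stood apart from 32 with 21.2 TPM or more. In the 32, 0 members had a negative correlation that passed the permutation test, where 0.137% of all genes did, 0 at an unadjusted p under 0.05 and 0 by rank, and 1 had a positive one, where 9.08% did. That one was Col8a1, with r = 0.567 (adjusted permutation p = 0.0176), whose rho of 0.419 did not pass (adjusted permutation p = 0.0819). In these 32, Col1a1 had r = 0.242 (rho = 0.250, adjusted permutation p = 0.409). The 4 libraries apart had Col1a1 at 294, 308, 112.02 and 178 TPM, as single values. By rank correlation over all 36, 0 members passed the permutation test in either direction, also at an unadjusted p under 0.05. Over the 79 libraries 24 members passed with a positive r, where 17.6% of all genes did. There 72 libraries at 0.81 TPM of Chga or less and 7 at 1.19 or more met the rule for separate sides, with no wide gap. Each side holds fewer libraries and a narrower range of Chga than the 79, which can lower a count by itself. All Chga values in the 72, with a median of 0.285 TPM, lay under the 1 TPM taken as detection. Correlations with Chga there rest on values near the floor, so a count of 0 does not show that a relation is absent. In the 72, 0 members passed the permutation test with a positive r, where 1.12% of all genes did, and 12 had an unadjusted p under 0.05. By rank 0 passed, but 5 had a positive rho at an unadjusted permutation p under 0.05. In the 7, 0 of 48 members and 0 of 14564 genes in all passed the permutation test, so that count says nothing about the members. Of the members, 1 had an unadjusted p under 0.05. By rank 0 passed, but 2 had a positive rho at an unadjusted permutation p under 0.05. The median r of the members was 0.17 in the 72 and 0.46 in the 7, beside 0.13 and 0.09 over all genes. The 7 include W5001 and W5003, with Chga at 2.76 and 1.19 TPM.

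Tgm4, a transglutaminase secreted by prostate epithelium, also met the rule for separate sides in the 79 libraries. These were 59 with 2901 TPM or more and 20 with 2469 TPM or less, and the sides nearly adjoin. Each side holds fewer libraries and a narrower range of Tgm4 than the 79, which can lower a count by itself. Over the 79, 42 of 48 members had a negative correlation that passed, where 26.4% of all genes did. In the 59, 11 members passed with a negative r, where 16.3% of all genes did, and in the 20, 0 passed, where 0.00685% of all genes did. In the 20, 2 members had a negative r at an unadjusted permutation p under 0.05, and the median r of the members was -0.24. By rank 0 passed, but 5 had a negative rho at an unadjusted permutation p under 0.05. The 11 were led by Timp2, with r = -0.495 (rho = -0.541, adjusted permutation p = 0.000882), and Col14a1, with r = -0.406 (rho = -0.380, adjusted permutation p = 0.00722). Ogn, Mfap4 and Fbln1 followed, with r between -0.401 and -0.380. Both PDGF receptors were among them, Pdgfrb with r = -0.318 (rho = -0.332, adjusted permutation p = 0.0423). Col1a1 did not pass in the 59, with r = -0.150 (rho = -0.127, adjusted permutation p = 0.388). Markers of other cells moved with Tgm4 too. Over the 79, negative correlations passed for 7 of 7 leukocyte, 7 of 9 endothelial and 5 of 6 skeletal muscle markers, and positive ones for 4 of 10 smooth muscle markers. In the 59 negative correlations passed for 6 of 8 neuroendocrine, 5 of 6 skeletal muscle, 3 of 6 seminal vesicle, 2 of 9 endothelial and 1 of 7 leukocyte markers. Their part in these values was not tested. In the 36 libraries, Tgm4 was at or under 18.7 TPM in 34. Over the 36, 0 members passed the permutation test, where 0.0821% of all genes did with a positive and 0.00684% with a negative r. At an unadjusted permutation p under 0.05, 3 members had a positive and 1 a negative r. By rank 0 passed, but 12 had a positive and 0 a negative rho at an unadjusted permutation p under 0.05.

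**Figure D5:**
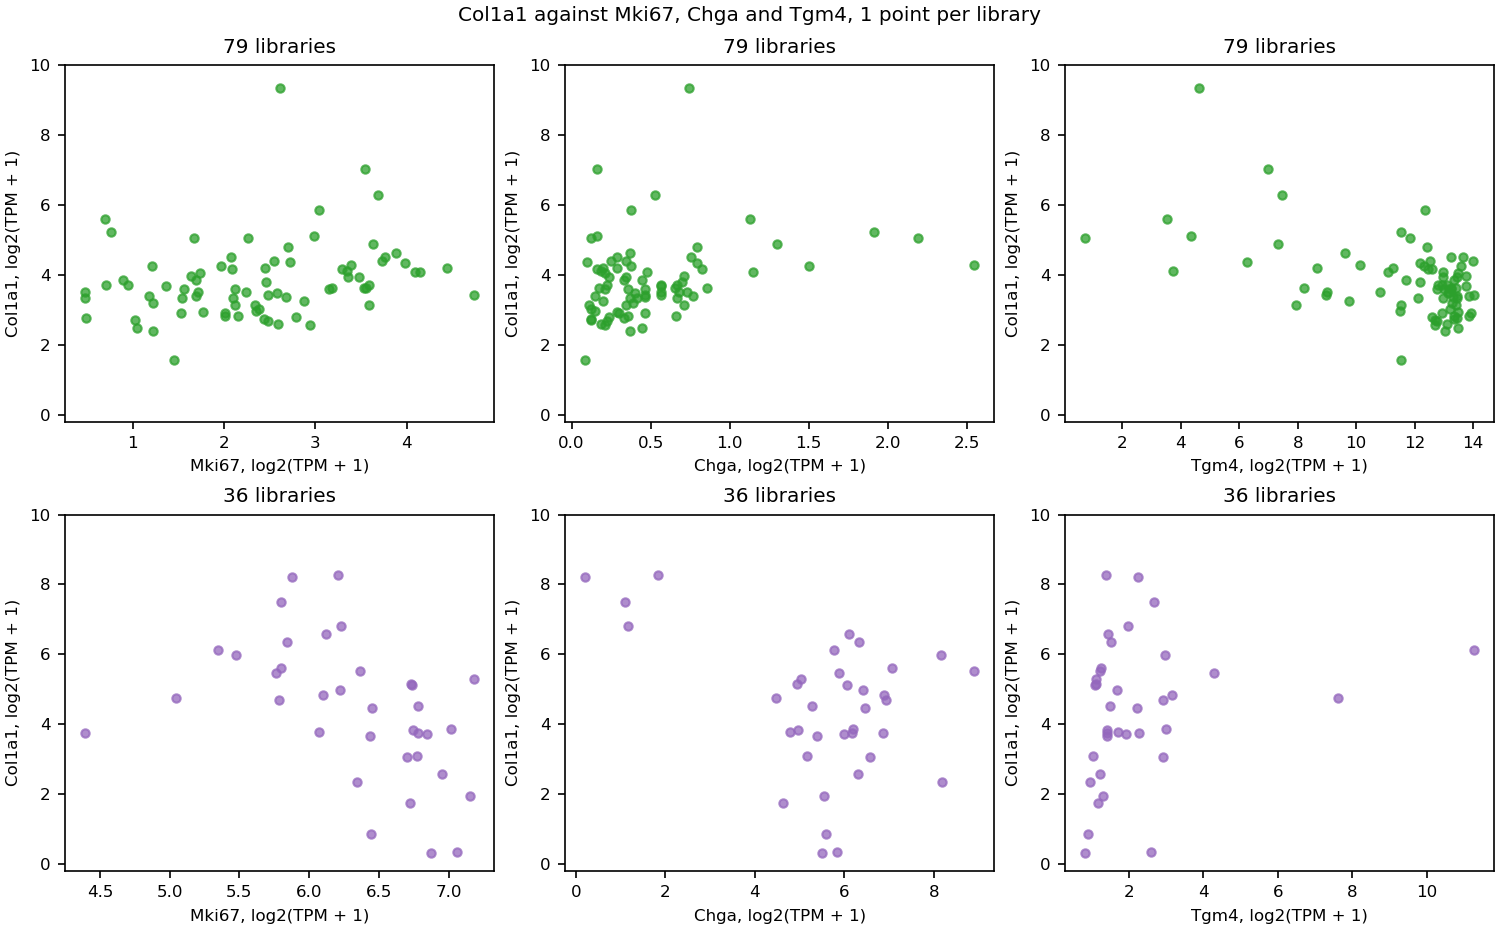
Col1a1 against Mki67, Chga and Tgm4 as log2(TPM + 1), 1 point per library, in the 79 libraries above and the 36 below. In the lower row Col1a1 falls with Mki67, and the 4 libraries of low Chga lie apart at the top left of the Chga panel.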

How the data were processed

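Bulk prostate RNA of transgene-positive (TRAMP x WSB) F2 mice, 1 group in 79 and 36 libraries, was analysed, and the 48 members and all lists were chosen with earlier results of these data known. The labels give each library its own identifier, taken as 1 mouse, so p-values rest on the variation between mice. Nearly the same identifier on 2 libraries may be a typing slip. The study's methods count fewer RNA samples than the table holds libraries, without naming them, and all libraries were used. The authors depleted ribosomal RNA, mapped reads with Bowtie2 2.2.5 to an allele-specific transcriptome on GRCm38 and deposited TPM from RSEM 1.2.20. The annotation is not given in the sources used here. TPM keeps no depth, so no count model was used and the precision from counting is unknown.

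Levels are medians and ranges. Correlations used log2(TPM + 1) over the 14623 genes whose mean reached 1 TPM (all 48 members did), with a two-sided permutation test of Pearson r and Spearman rho (100000 permutations) across all genes and Benjamini-Hochberg adjustment at 0.05. A gene with 1 value throughout a set of libraries was left out. Libraries were called separate where 2 normal distributions fitted better than 1 by a BIC difference above 10, Ashman D was above 2 and each side held at least 6; the last condition was not met by Chga and Tgm4 in the 36 libraries. Named genes are all members, the 3 markers, the 5 genes most like Col1a1 and the 2 most abundant genes of lists described; others in these lists and single libraries were named after their values were seen. Scripts were tested on simulated data. Python 3.11.15, numpy 2.4.6, pandas 2.3.3 and scikit-learn 1.9.0 were used. Positions are from GENCODE M21. Alternatives were another pseudocount, 2 scalings, no filter, rank correlation, other sets of libraries and other detection limits. The phenotypes of the mice were not used.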

Additional observations from a re-analysis of the deposited data

How the results depend on the processing

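The correlations of the members were recomputed under 121 combinations of result and alternative, and 98 stayed within 1.5 times the count reported. Some of the 98 were fixed in advance, because the alternative left the libraries unchanged. In both sets this holds for setting the sides with the members included. In the 36 it also holds for leaving out the seminal vesicle-rich libraries or 1 of the 2 with nearly the same name. Leaving out the libraries less surely placed changed only the 79. All 24 alternatives for the chain ratios kept direction and side of the threshold. The 2 scalings multiply both chains of a library by the same factor, so they could move these ratios only through the pseudocount. For Mki67 in the 36 libraries, the negative count rose to 40 with median-of-ratios scaling, 33 with rescaling without the 20 genes, 35 by rank correlation and 40 without the 2 libraries farthest from the median, beside 38.3%, 24.04%, 27.01% and 31.4% of all genes. For Mki67 in the 79, these scalings gave 4 and 7 positive and 5 and 1 negative members. For Chga in the 79, the positive count fell from 24 to 12 with median-of-ratios scaling, 13 by rank, 5 without the seminal vesicle-rich libraries, 10 without the 2 farthest libraries, and 0 in both the 72 and the 7. For Chga in the 36, the negative count fell from 23 to 15 with rescaling, 14 with no filter, and 0 by rank, without the 2 farthest libraries and in the 32, where 1 was positive. For Tgm4 in the 79, 42 negative members became 11 in the 59 and 0 in the 20, and in the 36 without the 4 libraries of low Chga 1 was positive. At 5 TPM 31 members were detected in place of 47. The causes were not tested. Sets by the level of Chga or Tgm4 were added after seeing the data, and each holds fewer libraries and a narrower range of the marker. The share of TPM in the 20 genes moved with Col1a1 too (r = -0.346 in the 79 and -0.556 in the 36). No paired analysis was possible because all libraries are of 1 group.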
